A study of Avena sativa with 108 samples.

Results

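The 9 genes described here are the puroindoline-like genes of oat (Avena sativa), that is, every gene of the count tables whose closest protein match is annotated as puroindoline, vromindoline, tryptophanin or grain softness protein. They are 9 of the 68572 genes in each of the 2 tables, and all 9 carry the same annotation, Puroindoline-B of wheat. By their identifiers, given here without the prefix that all oat genes of the annotation share, they lie on 5 chromosomes: 1Cg0000330 on 1C, 3Cg0000019 on 3C, 4Ag0000497 on 4A, 4Dg0000847, 4Dg0000850 and 4Dg0000856 on 4D, and 7Cg0003024, 7Cg0003030 and 7Cg0003032 on 7C. All 9 passed the filter on low counts in both experiments.

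Puroindolines are small, cysteine-rich proteins with a tryptophan-rich stretch that binds lipids, and they are made in the starchy endosperm, where they end up on the surface of starch granules. In wheat the puroindoline genes make up the Hardness locus, and loss or mutation of either gene turns soft grain hard. The oat proteins of this family are known as vromindolines or tryptophanins, oat grain is soft, and members of the family have antimicrobial activity in vitro. What each single oat gene listed above does is not annotated beyond this match, so no separate roles can be given to them.

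RNA was measured by RNA-seq in whole grain of the spring oat cultivars AC Morgan and CDC Morrison from 5 to 40 DPE (days counted from emergence of the panicle) in steps of 5 days, with 3 libraries for each cultivar and time, each from grains pooled from a single panicle. It was also measured in embryo and endosperm of the same cultivars at 0, 3, 6, 24 and 48 h of germination on damp paper under long days, again with 3 libraries for each cultivar, tissue and time. The cultivars are unmodified commercial lines. By the paper's methods, seed was treated with the fungicide Baytan T before planting, and plants were fertilized weekly. No experimental treatment is named beyond the imbibition of the germinating grain. The labels name no separate cultures or plants for the germination replicates, so the p-values there measure the spread between these samples, which may be technical.

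Values are CPM, counts scaled to a common library size by TMM, and log2 fold changes come with their standard error (SE). A gene was called where the quasi-likelihood test of edgeR gave a p under 0.05 after Benjamini-Hochberg adjustment across the tested genes. Each share of all genes called is that of this test on all the libraries used. For counts of genes at an unadjusted p under 0.05, the matching share of all genes is not given. CPM is not divided by transcript length, which the tables do not give, so levels are compared within a gene and the order of genes is an order of counts. The 9 genes match the same wheat protein and may share reads, so a value of a single gene could include reads of another. In whole grain, fewer endosperm cells and less RNA per cell cannot be told apart. Where libraries are said not to overlap, the share of all genes without overlap is not given. Such counts are therefore a description.

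Total counts ranged from 11235846 to 30846412 over the 47 developing-grain libraries used and from 3895703 to 39871377 over the 60 germination libraries. A further library, CDC Morrison 10 DPE replicate 1, was left out: it held 2184611 counts and was absent from the normalized table of the authors. It also stood apart by its content, since the 9 genes took 1.25% of its counts against at most 0.00164% in the other 2 libraries of its group, and over all genes its profile correlated best with the CDC Morrison mean at 15 DPE (r = 0.931, against 0.843 with its own time point). The 48 grain libraries matched their cultivar labels: of 192 genes read mainly in AC Morgan grain, at least 92.2% were detected in every AC Morgan grain library and at most 6.77% in any CDC Morrison grain library. The genes were chosen by their reads in grain of the labelled cultivars, so part of this match follows from the choice. The germination libraries were not put through this check. Avenins (18 genes), the prolamin stores of the starchy endosperm, summed to 27673 to 62379 CPM in endosperm at 0 h and to 1169 to 5128 CPM in embryo. Carry-over of endosperm and RNA made in the embryo cannot be told apart in these embryo values.

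In developing grain the 9 genes were close to silent at 5 and 10 DPE and much lower again by 35 DPE than at their peak. From 15 to 25 DPE they were among the abundant transcripts of the grain, except for 7Cg0003024 in part of the CDC Morrison libraries. Over the 11 libraries of 5 and 10 DPE the 99 single values lay between 0 and 6.69 CPM, with a median count of 8 reads. Over the 18 libraries of 15, 20 and 25 DPE the median count of a gene was 44814, and single values lay between 16.4 and 13242 CPM. The lowest was that of 7Cg0003024 in CDC Morrison 15 DPE replicate 2. The 9 genes together took 0.000129 to 0.00218% of all counts at 5 and 10 DPE, 1.41 to 3.58% at 15 to 25 DPE and 0.0633 to 0.333% at 35 and 40 DPE.

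**Figure D1:**
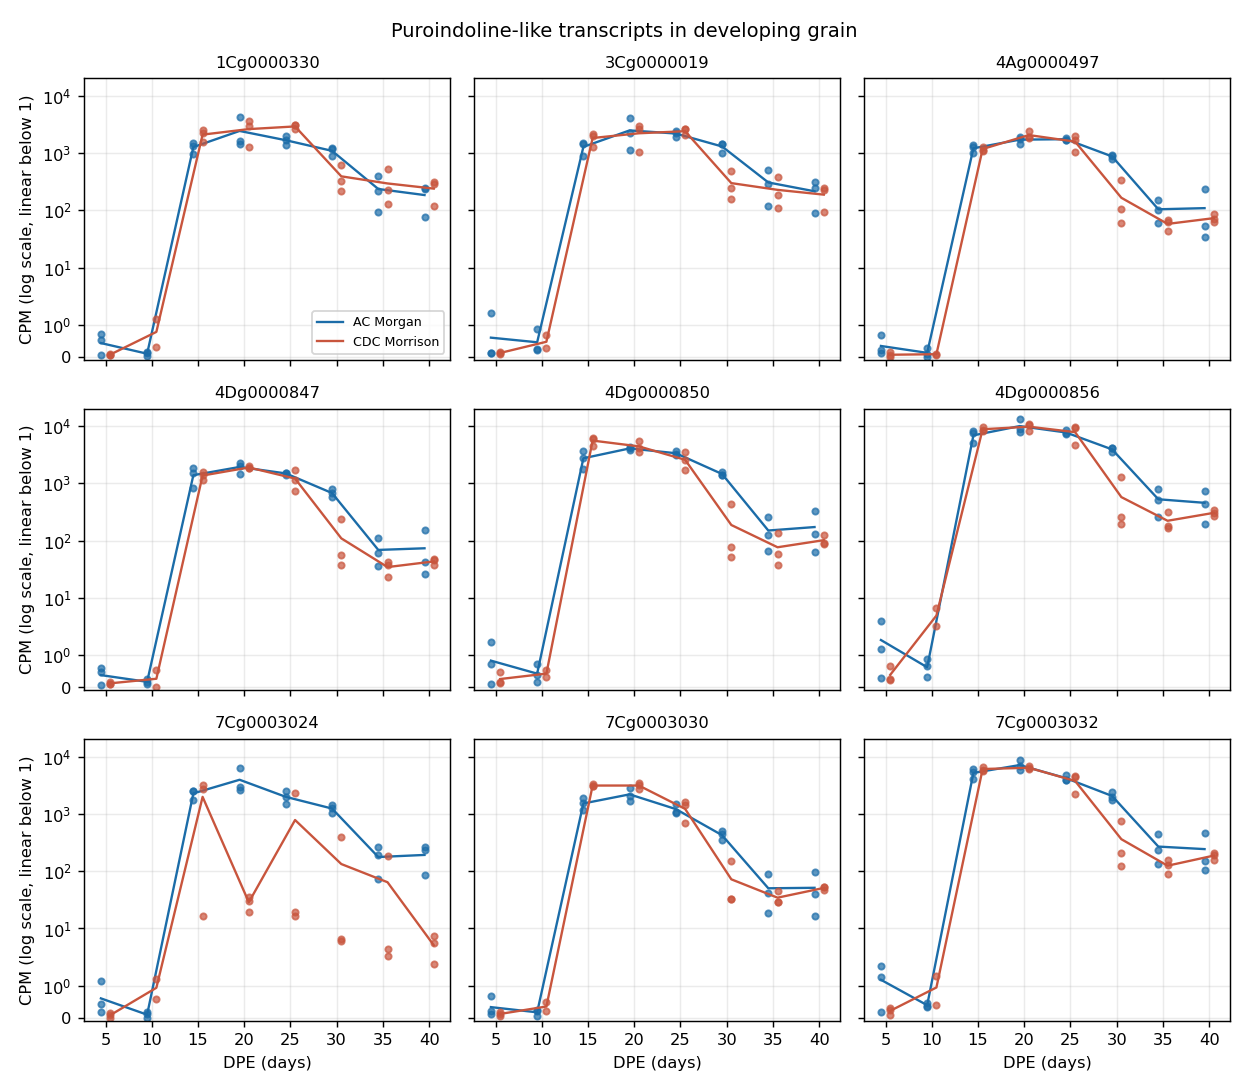
CPM of each of the 9 puroindoline-like genes (y axis, log scale, linear below 1) against time in DPE (x axis), with a point per library and a line through the group means, AC Morgan in blue and CDC Morrison in red. At 30 DPE CDC Morrison lies below AC Morgan without overlap in all 9 panels, and 7Cg0003024 splits into high and low CDC Morrison libraries.

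The gene with the most counts was 4Dg0000856. In AC Morgan its 3 libraries of 5 DPE held 1.31, 3.96 and 0.277 CPM, and those of 10 DPE 0.676, 0.883 and 0.315 CPM. By 15 DPE they had reached 7577, 8137 and 4994 CPM, and the 20 DPE libraries stood at 7834, 13242 and 8968 CPM. Every library of 15 or 20 DPE was thus far above every library of 5 or 10 DPE. At 25 DPE the values were 7250.1, 7566 and 8449 CPM, at 30 DPE 4082, 3556 and 4143 CPM, and at 35 DPE 815, 260.0 and 512 CPM. At 40 DPE they were 739, 439.9 and 198 CPM, which overlap those of 35 DPE.

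In CDC Morrison 4Dg0000856 held 0.232, 0.258 and 0.667 CPM at 5 DPE and 3.2 and 6.69 CPM in the 2 libraries of 10 DPE. It then held 9748, 8489.8 and 8224 CPM at 15 DPE, while the libraries of 20 DPE held 10343, 8266 and 10744 CPM and those of 25 DPE 9722, 9193 and 4627 CPM. At 30 DPE it stood at 196, 257 and 1279 CPM, and at 35 DPE at 318, 181 and 169.7 CPM. The CDC Morrison libraries of 30 DPE overlap those of 35 DPE and lie below all those of 25 DPE.

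All 9 genes changed over time in either cultivar by the test over the 8 time points, where 81.8% of all tested genes were called in AC Morgan and 82.1% in CDC Morrison. The largest step was from 10 to 15 DPE. All 9 rose there in AC Morgan, where 15.5% of all genes were called higher, with log2 fold changes from 11.43 to 14.45 (SE 0.95 to 2.38, adjusted p at most 1.28e-05). All 9 also rose in CDC Morrison, where 11.4% of all genes were called higher, by 10.80 to 13.78 on the log2 scale (SE 1.14 to 2.55, adjusted p at most 0.00137). The libraries of 10 and 15 DPE did not overlap for any of the 9 genes in either cultivar. The size of these folds rests on the few reads at 10 DPE and is much less certain than their direction. The step was tested with 2 libraries at 10 DPE in CDC Morrison, and with the third library included 1 of the 9 was called.

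From 15 to 25 DPE no step was called for any of the 9 genes by edgeR's quasi-likelihood test. Of all genes 0.00322% and 11.9% were called in the steps to 20 and to 25 DPE in AC Morgan, and 0.888% and 4.99% in CDC Morrison. At an unadjusted p under 0.05, AC Morgan had 0 of 9 in both steps and CDC Morrison 1 of 9 from 15 to 20 DPE and 2 of 9 from 20 to 25 DPE. DESeq2 called 1 of 9 in each of these CDC Morrison steps and limma 0 and 1. In AC Morgan 8 of the 9 genes had their highest mean at 20 DPE and 4Ag0000497 at 25 DPE. In CDC Morrison 5 of the 9 were highest at 20 DPE, 4Dg0000850 and 7Cg0003024 at 15 DPE, and 1Cg0000330 and 3Cg0000019 at 25 DPE. These neighbouring time points did not differ beyond their spread by the test, so the order is a description.

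The highest group means ranged from 1741 ± 94.9 CPM (SD, n = 3) for 4Ag0000497 to 10015 ± 2852 CPM (SD, n = 3) for 4Dg0000856 in AC Morgan. Second to 4Dg0000856 in counts was 7Cg0003032, with 6785, 8775 and 5769 CPM in AC Morgan and 6345, 6720.0 and 6066 CPM in CDC Morrison at 20 DPE. The lowest peak in CDC Morrison was that of 4Dg0000847, with 1853, 1998 and 1849 CPM at 20 DPE. The cultivars overlapped for these genes at that time.

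The called fall lay in a different step in each cultivar. From 25 to 30 DPE, 8 of the 9 genes fell in CDC Morrison, where 17.3% of all genes were called lower, with log2 fold changes from -4.08 to -2.55 over the 9 genes (adjusted p at most 0.00131 for the 8). The exception was 7Cg0003024 (adjusted p = 0.176). In AC Morgan none of the 9 was called in that step, where edgeR called 0.764% of all genes, and 1 of 9 had an unadjusted p under 0.05. Limma and DESeq2 called 0 there too. The AC Morgan libraries of 25 and 30 DPE did not overlap for any of the 9, with log2 fold changes from -1.51 to -0.62.

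From 30 to 35 DPE the calls were the other way round. In AC Morgan 8 of the 9 genes fell, where 21.9% of all genes were called lower, with log2 fold changes from -3.30 to -2.09 over the 9 genes (adjusted p at most 0.0167 for the 8) and 7Cg0003024 again as the exception (adjusted p = 0.129). With all 48 grain libraries in the fit, 2 genes were called in this step and 5 in the CDC Morrison step from 25 to 30 DPE. In CDC Morrison, where 0.0983% of all genes were called, none of the 9 was called in that step by edgeR, DESeq2 or limma, and 4 of 9 had an unadjusted p under 0.05. From 35 to 40 DPE none was called in either cultivar by these 3 tools, with an unadjusted p under 0.05 for 0 of the 9 in AC Morgan and 1 in CDC Morrison, and 0.00322% and 0.0226% of all genes called.

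At 30 DPE the mean level was 35.0 to 65.3% of that at 25 DPE over the 9 genes in AC Morgan and 5.89 to 17.1% in CDC Morrison. The 17.1% is that of 7Cg0003024, whose libraries differ widely, and the other 8 lay between 5.89 and 13.5%. Without CDC Morrison 30 DPE replicate 3 these 8 lay between 2.53 and 9.43%, with 2.88% in place of 7.36% for 4Dg0000856, and 7Cg0003024 at 0.797%. At 35 DPE 4.15 to 14.1% of the 25 DPE level was left in AC Morgan and 2.82 to 10.1% in CDC Morrison. The test of the difference between cultivars in the 25 to 30 DPE step itself called none of the 9 by edgeR, with log2 differences from -2.78 to -1.87 and an unadjusted p under 0.05 for 8 of 9, while 6.33% of all genes were called. DESeq2 and limma each called 7 of the 9. The outcome turned on CDC Morrison 30 DPE replicate 3, the library with the highest values of its group: without it all 9 were called in this test. The shares of all genes called by the other tools or without that library are not given. For the step from 30 to 35 DPE the test of the difference called none by edgeR or DESeq2 and 6 by limma, with an unadjusted p under 0.05 for 3 of 9, and without the same library edgeR called 7. Of all genes edgeR called 6.46% in this test with all the libraries used.

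**Figure D2:**
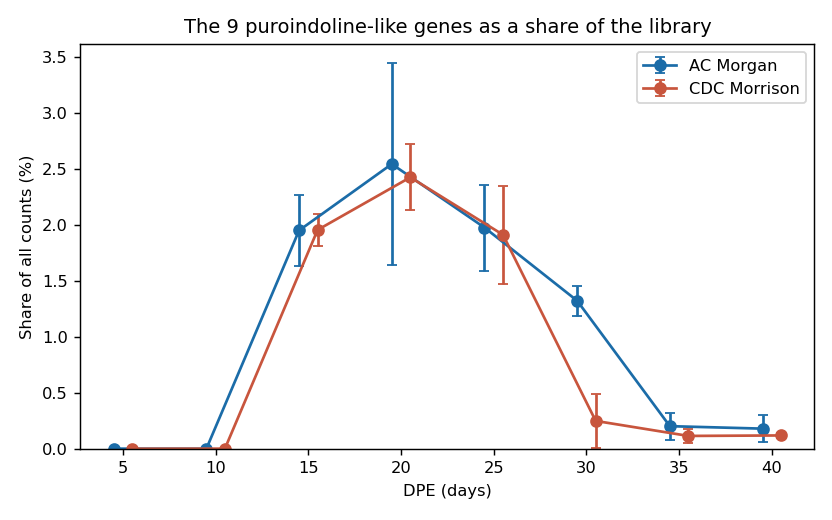
Share of all counts taken by the 9 puroindoline-like genes together (y axis, percent) against time in DPE (x axis), as mean and SD of 3 libraries a group (2 for CDC Morrison at 10 DPE), AC Morgan in blue and CDC Morrison in red. The means are 1.32% in AC Morgan and 0.249% in CDC Morrison at 30 DPE, against 1.98 and 1.91% at 25 DPE.

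The comparison of cultivars asks whether these genes differ between AC Morgan and CDC Morrison at the same time after emergence. At 30 DPE 7 of the 9 genes were lower in CDC Morrison, where 19.1% of all tested genes were called lower, and none was higher. The libraries of the cultivars did not overlap for any of the 9 genes at this time. For 4Dg0000856 the values above, 3556 to 4143 CPM in AC Morgan and 196 to 1279 CPM in CDC Morrison, gave a log2 difference of -2.77 (SE 0.66, adjusted p = 0.00133).

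For 4Dg0000850 the 3 AC Morgan libraries held 1399, 1429.5 and 1554 CPM and the CDC Morrison libraries 52.9, 77.8 and 434 CPM, the widest called difference of the 9 (log2 -2.96, SE 0.73, adjusted p = 0.00177). For 7Cg0003030 they held 493, 344 and 438 CPM against 33.1, 32.3 and 151 CPM (log2 -2.56, SE 0.61, adjusted p = 0.00117). The other called genes were 3Cg0000019, 4Ag0000497, 4Dg0000847 and 7Cg0003032, with log2 differences from -2.63 to -2.12. In each the third CDC Morrison library was the highest of its group and still below every AC Morgan library.

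Not called at 30 DPE were 1Cg0000330, with 1188, 877 and 1203 CPM in AC Morgan against 221, 327 and 625 CPM in CDC Morrison (log2 -1.48, SE 0.63, adjusted p = 0.0630), and 7Cg0003024 (log2 -3.22, SE 1.49, adjusted p = 0.0892). DESeq2 and limma called all 9 lower at this time. Without CDC Morrison 30 DPE replicate 3 all 9 were called by edgeR, without replicate 1 or 2 of that group 3Cg0000019 was not, and the log2 difference of 4Dg0000856 was -4.12 without replicate 3. With the library CDC Morrison 10 DPE replicate 1 in the fit, none was called at 30 DPE.

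Markers of the starchy endosperm and of the green pericarp moved in the same libraries. The 18 avenins summed to 66377, 51154 and 59925 CPM in the AC Morgan libraries of 30 DPE and to 6536, 9801 and 28514 CPM in those of CDC Morrison. GBSS1 (3 genes), the granule-bound starch synthase that makes amylose, summed to 987, 950.4 and 949 CPM against 5.73, 12.9 and 235 CPM. Replicate 3 of CDC Morrison was thus the highest of its group for these endosperm markers as well. Chlorophyll a-b binding proteins (72 genes), markers of the green pericarp, summed to 33.0 to 109 CPM in AC Morgan and 7.44 to 9.21 CPM in CDC Morrison at 30 DPE, which is 35.3% and 12.3% of their mean at 25 DPE, beside 49.7% and 13.0% for the avenins. Other marker lists did not move alike. Oleosins stood at 154% of their 25 DPE mean in AC Morgan and 141% in CDC Morrison, and embryo regulators at 111% and 129%. Alpha-amylases stood at 85.1% and 46.4%. The part of any of these markers in the difference in the puroindoline-like genes was not tested.

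**Figure D3:**
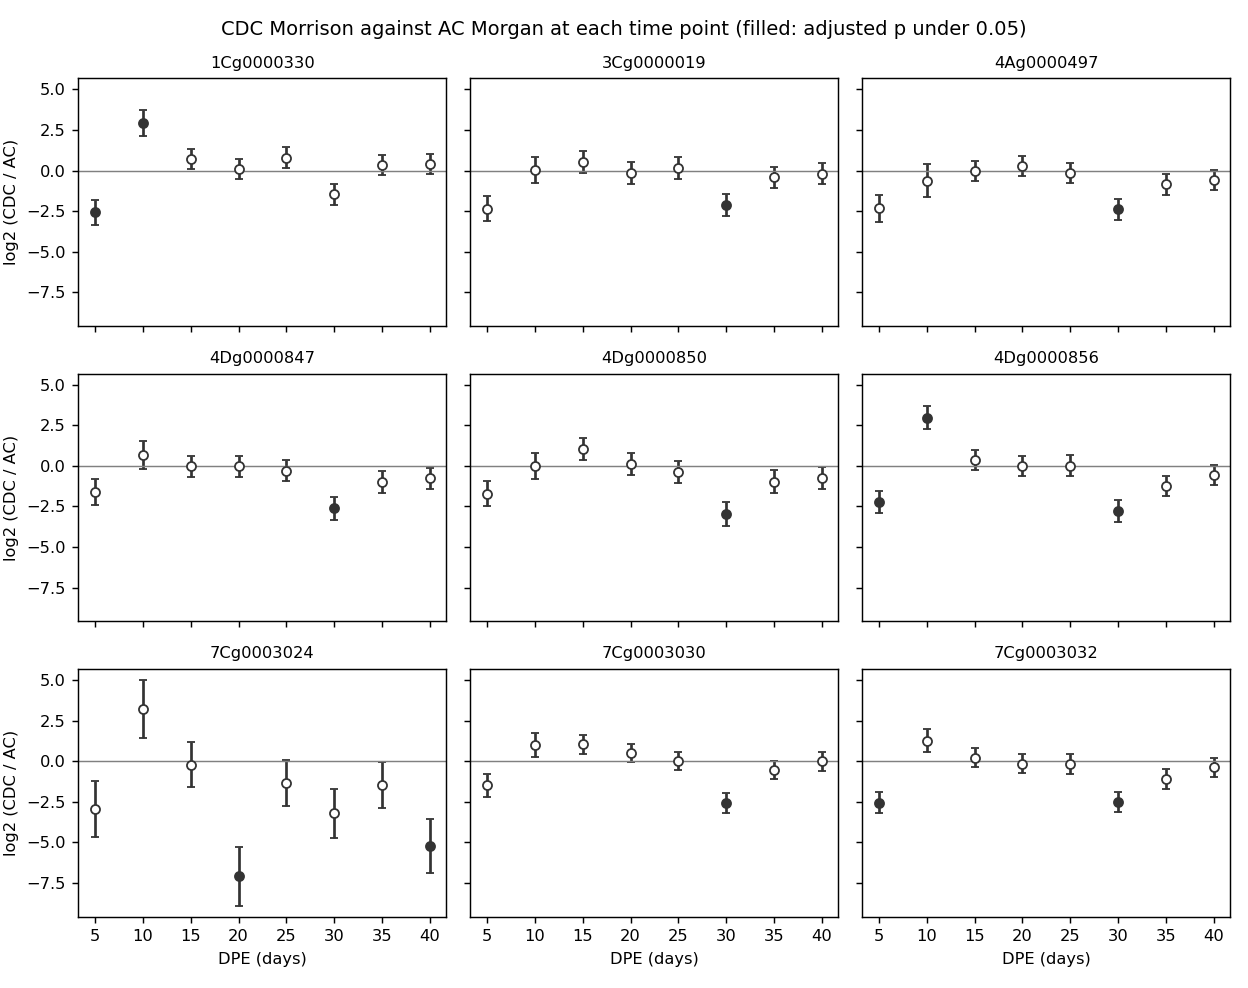
Log2 difference of CDC Morrison from AC Morgan (y axis) at each time in DPE (x axis) for each of the 9 puroindoline-like genes, as the fitted value with its standard error, filled where the adjusted p was under 0.05. The filled points at 30 DPE, in 7 panels, all lie below 0.

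From 15 to 25 DPE 1 of the 9 genes was called between the cultivars. Over the mean of these 3 time points, 7Cg0003024 was lower in CDC Morrison, where 12% of all genes were called lower (log2 -2.88, SE 0.85, adjusted p = 0.0105). For the other 8 genes the log2 differences ran from -0.12 to 0.54 with SE from 0.33 to 0.39, and limma called 1 gene higher in CDC Morrison over these times. At 15 DPE the CDC Morrison libraries lay above those of AC Morgan without overlap for 4 genes, 1Cg0000330, 4Dg0000850, 4Dg0000856 and 7Cg0003030. For 4Dg0000850 the values were 2803, 3619 and 1820.2 CPM in AC Morgan and 6331, 5878 and 4576 CPM in CDC Morrison. At 25 DPE the same held for 1Cg0000330, with 1396, 1658 and 1955 CPM in AC Morgan and 3033, 3042 and 2645 CPM in CDC Morrison. At the single time points 15 and 25 DPE, where 9.38% and 9.6% of all genes were called, none of the 9 was called by edgeR and none had an unadjusted p under 0.05, DESeq2 called none, and limma called 0 and 1. Without CDC Morrison 25 DPE replicate 2, 1 gene was called at 25 DPE.

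At 5 and 10 DPE the few reads also differed. At 5 DPE 3 genes, 1Cg0000330, 4Dg0000856 and 7Cg0003032, were lower in CDC Morrison, where 4.9% of all genes were called lower, with log2 differences of -2.58, -2.24 and -2.56. Without AC Morgan 5 DPE replicate 2 or CDC Morrison 5 DPE replicate 2, none of the 3 was called, while leaving out AC Morgan replicate 3, CDC Morrison replicate 1 or CDC Morrison replicate 3 of that time gave 6, 1 and 4 calls. Without AC Morgan replicate 1 the calls were again 3, but 1Cg0000330 was lost (adjusted p = 0.0668) and 3Cg0000019 gained (adjusted p = 0.0188). DESeq2 called 5 genes at 5 DPE, limma none, and edgeR none with all 48 grain libraries. At 10 DPE 1Cg0000330 and 4Dg0000856 were higher in CDC Morrison, where 14.4% of all genes were called higher (log2 2.94 and 2.97, adjusted p = 0.00479 and 0.00178). For 4Dg0000856 the values were 0.676, 0.883 and 0.315 CPM in AC Morgan and 3.2 and 6.69 CPM in CDC Morrison, which do not overlap. Without CDC Morrison 10 DPE replicate 3, 1Cg0000330 was not called (adjusted p = 0.327), but that leaves a single library in the group, assumed to vary like the other groups. From 5 to 10 DPE the 3 genes called at 5 DPE rose in CDC Morrison, where 9.53% of all genes were called higher, with log2 fold changes of 3.47, 3.66 and 2.14, and 1 was called with that single library. In AC Morgan, where 3.89% of all genes were called, none of the 9 was called in that step by edgeR, DESeq2 or limma, and 3 had an unadjusted p under 0.05. The test of the difference between the cultivars in this step called the same 3 genes, where 4.32% of all genes were called higher.

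At 35 DPE, where 12.6% of all genes were called, none of the 9 differed between the cultivars at the threshold by edgeR, DESeq2 or limma, and no unadjusted p was under 0.05. Without CDC Morrison 35 DPE replicate 1, 1 gene was called. At 40 DPE only 7Cg0003024 was called (log2 -5.24, SE 1.65, adjusted p = 0.0283), where 7.13% of all genes were called lower, and it was not called when AC Morgan 40 DPE replicate 2 or any 1 of the 3 CDC Morrison libraries of that time was left out. The interaction of cultivar and time was called for 5 of the 9 genes, 1Cg0000330, 4Dg0000856, 7Cg0003024, 7Cg0003030 and 7Cg0003032, where 27.6% of all genes were called. DESeq2 called it for 9 and limma for 8, and without CDC Morrison 30 DPE replicate 3 edgeR called it for 8.

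7Cg0003024 behaved unlike the other 8 genes in CDC Morrison, where single libraries of the same time point lay far apart. At 15 DPE the 3 CDC Morrison libraries held 3205, 16.4 and 2719.8 CPM, and at 25 DPE 19.3, 2308 and 16.6 CPM. At 20 DPE they held 30.5, 19.8 and 35.8 CPM, all low, and at 30 DPE 6.51, 5.93 and 387 CPM. At 35 DPE they held 185, 3.25 and 4.42 CPM, and at 40 DPE 5.54, 2.43 and 7.33 CPM.

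In AC Morgan the gene was high in every library of those ages: 2550.1, 2506 and 1782 CPM at 15 DPE, 2604, 6255 and 2956 CPM at 20 DPE, and 85.1 to 259.9 CPM at 40 DPE. Expressed as a share of the counts of the 9 genes, which removes the common rise and fall, 7Cg0003024 took 6.36 to 16.2% in the 18 AC Morgan libraries of 15 to 40 DPE. In CDC Morrison 5 of 18 libraries lay at 7.61 to 10.1% and the other 13 at 0.0572 to 0.734%, with none in between. The 5 were replicates 1 and 3 at 15 DPE, replicate 2 at 25 DPE, replicate 3 at 30 DPE and replicate 1 at 35 DPE, and each of these libraries came from a single panicle. All 5 matched CDC Morrison in the check of cultivar labels.

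**Figure D4:**
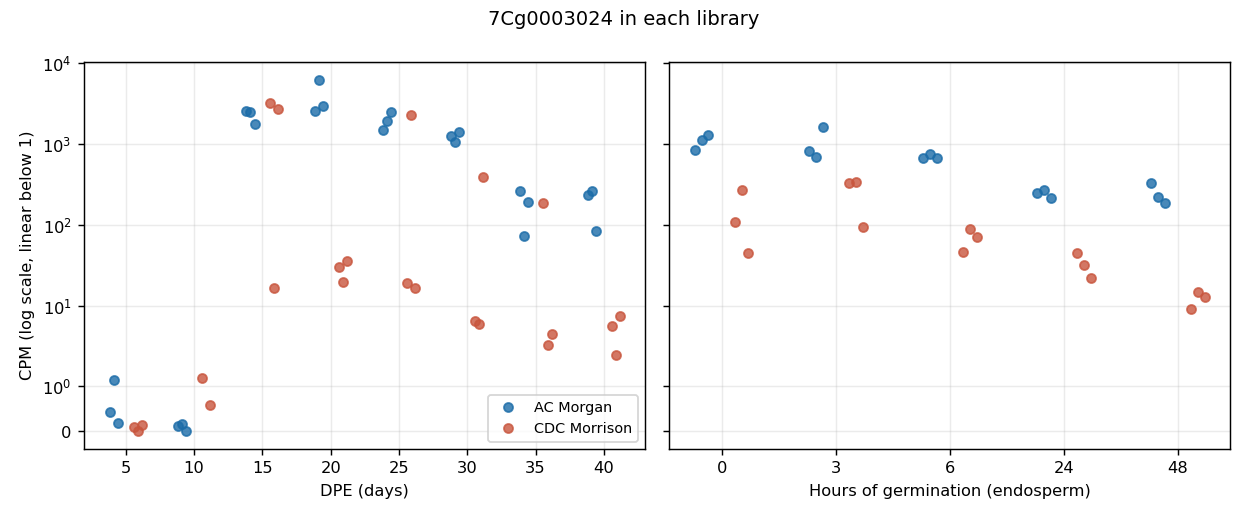
CPM of 7Cg0003024 in each library (y axis, log scale, linear below 1) of developing grain against DPE (left) and of endosperm against hours of germination (right, hours not to scale), AC Morgan in blue and CDC Morrison in red. From 15 DPE on the CDC Morrison libraries fall into a high set of 5 and a low set of 13, while in endosperm they lie below every AC Morgan library of the same hour.

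Because of this split the mean ± SD of the gene in CDC Morrison describes no library well: it was 1980.4 ± 1718 CPM (SD, n = 3) at 15 DPE. The call at 20 DPE (log2 -7.10, SE 1.79, adjusted p = 0.00499, where 6.5% of all genes were called lower) was between 3 low CDC Morrison libraries and 3 high AC Morgan libraries, and the absence of a call at 15 DPE between 3 high AC Morgan libraries and 2 high and 1 low CDC Morrison libraries. Without CDC Morrison 25 DPE replicate 2 the log2 difference over 15 to 25 DPE was -4.70. The neighbours by number, 7Cg0003030 and 7Cg0003032, showed no such split, with 3074, 3029 and 3261 CPM for 7Cg0003030 in CDC Morrison at 15 DPE.

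The makeup of the 9 genes shifted with age. 4Dg0000856 took a nearly fixed share of their counts in AC Morgan, from 26.2 to 31.2% over the 18 libraries of 15 to 40 DPE. In CDC Morrison its share varied more, from 17.4 to 36.3%, with means of 32.0% at 25 DPE and 21.1% at 35 DPE. The share of 1Cg0000330 was 5.11 to 5.59% at 15 DPE and 10.9 to 13.0% at 35 DPE in AC Morgan. In CDC Morrison it was 5.51 to 7.07% and 20.0 to 29.0%. For 3Cg0000019 the corresponding shares were 5.00 to 5.53% and 13.7 to 16.9% in AC Morgan, and 4.51 to 6.45% and 17.4 to 21.0% in CDC Morrison. The libraries of 15 and 35 DPE did not overlap in any of these 4 series, and what was left at 35 DPE held more of the 1C and 3C genes than the peak did. From 35 to 40 DPE the mean share of 1Cg0000330 went from 12.1 to 11.4% in AC Morgan and from 24.3 to 19.3% in CDC Morrison. That of 3Cg0000019 went from 15.6 to 13.0% and from 19.4 to 15.1%.

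The share of 4Dg0000850 went the opposite way. It took 10.4 to 13.2% at 15 DPE and 7.19 to 8.50% at 35 DPE in AC Morgan, and 14.8 to 20.5% and 5.94 to 7.38% in CDC Morrison. At 40 DPE it took 8.25 to 11.6% in AC Morgan, which overlaps 15 DPE, and 6.53 to 10.3% in CDC Morrison. Shares of a common sum are not independent of each other, so a larger share of some genes means a smaller share of others.

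1Cg0000330 and 3Cg0000019 also moved together between libraries of the same group. In AC Morgan at 20 DPE replicate 2 held 4192 CPM of 1Cg0000330 and 4043 CPM of 3Cg0000019, against 1449.8 to 1632 CPM and 1149 to 2240.3 CPM in the other replicates. In CDC Morrison at 20 DPE replicate 2 was instead the low library, with 1272 and 1055 CPM against 2975 to 3586 CPM and 2605 to 2962 CPM. Over the 18 libraries of 15 to 25 DPE the deviations of their log2 CPM from the group means correlated with r = 0.947. This was the highest of any pair of the 9 genes, and the lowest was 0.171 for 3Cg0000019 with 4Dg0000847. The libraries are shared by all pairs, and the genes could share reads.

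The counts of 1Cg0000330 exceeded those of 3Cg0000019 in all 18 CDC Morrison libraries of 15 to 40 DPE, with a ratio of 1.10 to 1.39. In AC Morgan they did so in 3 of 18, with a ratio of 0.729 to 1.26. In endosperm the ratio was 1.11 to 1.48 over the 15 CDC Morrison libraries and 0.740 to 1.20 over the 15 of AC Morgan, so the cultivars overlap slightly in both experiments.

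Among 16921 other genes with a mean of at least 10 CPM, the genes whose 16 group means of log2 CPM were most like those of 4Dg0000856 were stores and inhibitors of the endosperm. The 5 that are not puroindoline-like were the 12S globulins 1Dg0002049 (r = 0.997) and 1Cg0000313 (r = 0.996), the avenins 3Dg0002714 (r = 0.996) and 3Dg0002802 (r = 0.996), and 1Dg0003447 (r = 0.996), annotated as an alpha-amylase/trypsin inhibitor. The 100 most alike held 7 of the other 8 puroindoline-like genes and 20 of the 28 prolamins. The remaining gene was 7Cg0003024 (r = 0.910).

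Gene lists chosen by annotation for storage, defence and starch in the endosperm were followed through the same steps. From 10 to 15 DPE 24 of 28 prolamins rose in AC Morgan and 24 in CDC Morrison, with median log2 fold changes of 13.11 and 12.27, against -0.05 and 0 over all tested genes. For 12S globulins, 45 of 46 could be tested, and 39 rose and 1 fell in AC Morgan, and 35 rose and 2 fell in CDC Morrison. Of 48 genes of starch synthesis 22 rose and 12 fell in AC Morgan, and 12 rose and 4 fell in CDC Morrison. Over all tested genes 15.5% were called higher and 14.6% lower in AC Morgan in this step, and 11.4% and 14% in CDC Morrison. At 30 DPE 17 of 28 prolamins, 23 of 45 12S globulins, 10 of 23 inhibitors and 18 of 48 genes of starch synthesis were lower in CDC Morrison, with medians of -1.89, -2.03, -1.71 and -0.46 on the log2 scale, beside -2.56 for the 9 puroindoline-like genes and -0.08 over all tested genes. At that time 5 of the 12S globulins and 6 of the genes of starch synthesis were higher in CDC Morrison, where 16.9% of all genes were called higher.

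In the endosperm of germinating grain the 9 transcripts were still abundant at 0 h and fell between 6 and 24 h. At 0 h they took 0.600 to 0.849% of all counts in AC Morgan and 0.255 to 0.634% in CDC Morrison. At 48 h they took 0.220 to 0.312% and 0.0763 to 0.0980%. In AC Morgan 4Dg0000856 held 2036, 3719 and 3196 CPM at 0 h, 1922, 2066 and 4337 CPM at 3 h, and 2501, 2099 and 2432 CPM at 6 h. It held 1009, 1001 and 908 CPM at 24 h and 865, 728 and 579.9 CPM at 48 h, below every earlier library.

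In CDC Morrison 4Dg0000856 held 2171, 1261 and 1919 CPM at 0 h, 1671, 1600.2 and 784 CPM at 6 h, 576, 381 and 192 CPM at 24 h, and 243, 239.8 and 204 CPM at 48 h. Between 0 and 48 h its log2 fold change was -2.04 in AC Morgan (SE 0.59, adjusted p = 0.00469) and -2.96 in CDC Morrison (SE 0.61, adjusted p = 8.77e-05). The libraries of 0 and 48 h did not overlap in either cultivar.

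All 9 genes fell from 0 to 48 h in both cultivars. In AC Morgan, where 18.3% of all genes were called lower, the log2 fold changes were -2.15 to -1.80 (adjusted p at most 0.0209), and in CDC Morrison, where 21.5% were called lower, they were -3.51 to -2.63 (adjusted p at most 0.000754). In AC Morgan 4Ag0000497 and 7Cg0003024 were not called without endosperm 0 h replicate 3 or 48 h replicate 3, and 7Cg0003024 was not called without 48 h replicate 2. The CDC Morrison libraries of 0 h were less alike, and their pairs had 136 to 246 times the variance of counting error. In AC Morgan the pairs of 0 h had 5.70 to 6.48 times. The 48 h level was 22.6 to 28.8% of that at 0 h in AC Morgan and 8.71 to 16.2% in CDC Morrison. The test of the difference between the cultivars in this fall called none of the 9 by edgeR (log2 differences from -1.46 to -0.83, SE 0.61 to 1.04), no unadjusted p was under 0.05, and limma and DESeq2 called none either, while 1.48% of all genes were called.

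By steps, averaged over the cultivars, none of the 9 was called from 0 to 3 h or from 3 to 6 h by edgeR, DESeq2 or limma, with an unadjusted p under 0.05 for 0 and 1 of the 9 and with 0.215% and 0.378% of all genes called. From 6 to 24 h all 9 fell, where 19.7% of all genes were called lower, with log2 fold changes from -1.74 to -1.28 (SE 0.31 to 0.52, adjusted p at most 0.0459). Within either cultivar the libraries of 6 and 24 h did not overlap for any of the 9. The weakest call was that of 7Cg0003024 (adjusted p = 0.0459), which was lost with DESeq2, with RLE factors, with library size alone, without a filter, and when any 1 of 10 single endosperm libraries was left out (adjusted p from 0.0592 to 0.106). Those were all 6 AC Morgan libraries of 6 and 24 h and replicates 2 and 3 of CDC Morrison at both times. From 24 to 48 h, where 17.9% of all genes were called, none of the 9 was called by these 3 tools and none had an unadjusted p under 0.05, with log2 fold changes from -0.71 to -0.25.

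**Figure D5:**
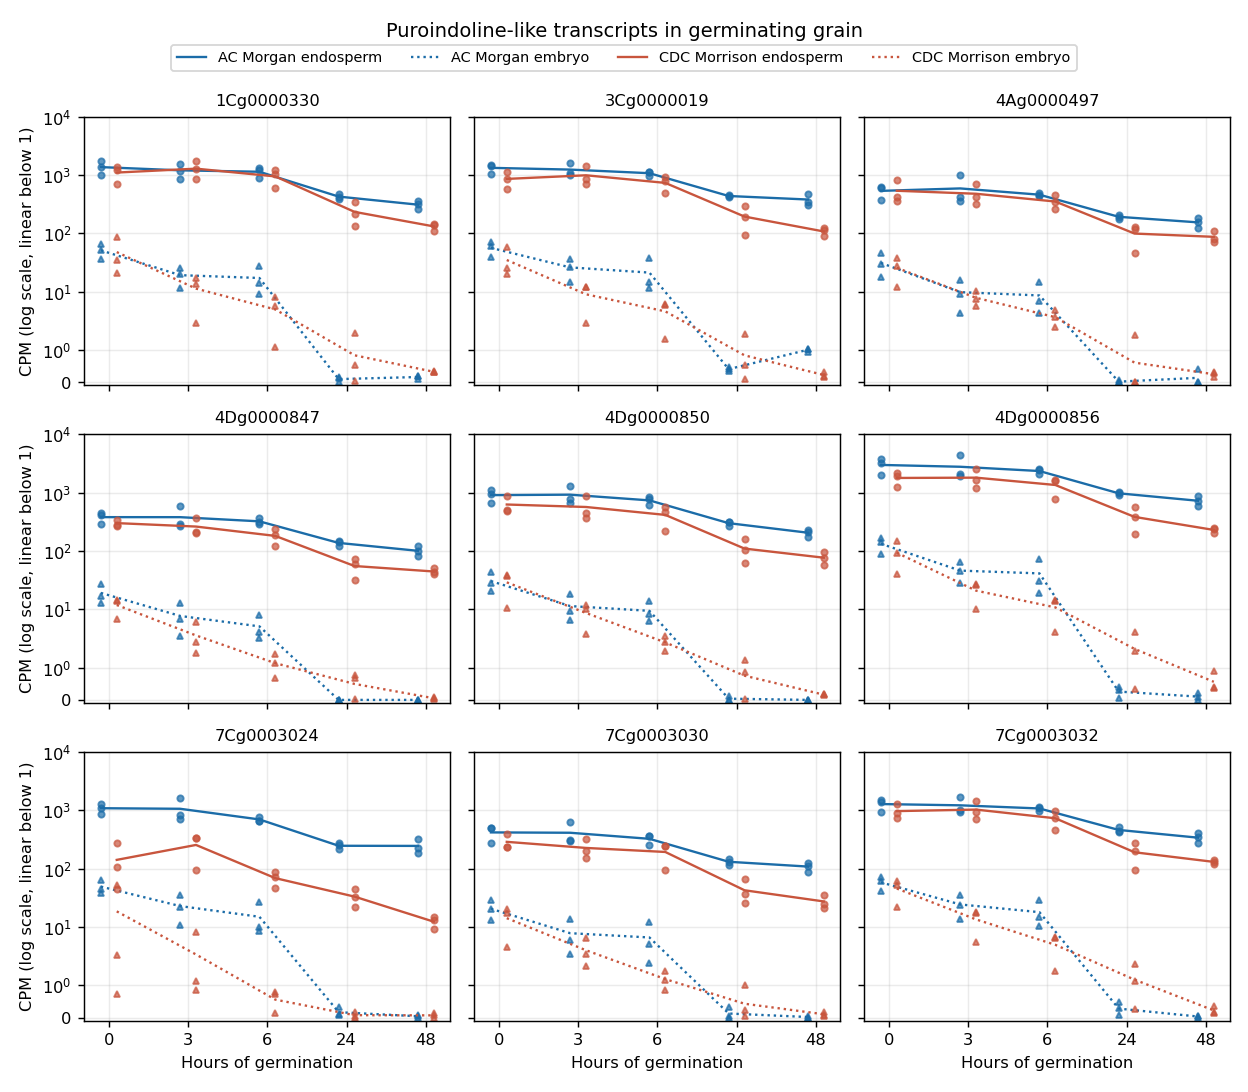
CPM of each of the 9 puroindoline-like genes (y axis, log scale, linear below 1) against hours of germination (x axis, not to scale) in endosperm (circles, solid lines) and embryo (triangles, dotted lines), with a point per library and lines through the group means, AC Morgan in blue and CDC Morrison in red. Apart from 7Cg0003024 at 0 h, where some libraries overlap, endosperm lies above embryo at every hour, it is lower at 24 h than at 6 h, and embryo reaches about 1 CPM or less by 48 h.

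Over the 5 time points 7 of the 9 genes were lower in CDC Morrison endosperm, where 16.8% of all genes were called lower, and none was higher. Of the 7, 6 had log2 differences from -1.15 to -0.77 (adjusted p at most 0.00457). The widest was that of 7Cg0003024, with 854, 1109.8 and 1288 CPM in AC Morgan and 108, 269.6 and 45.2 CPM in CDC Morrison at 0 h (log2 -3.11 over the 5 time points, SE 0.35, adjusted p = 4.33e-10). At each hour every CDC Morrison library of this gene was below every AC Morgan library. Not called by edgeR were 1Cg0000330 (log2 -0.52, adjusted p = 0.122) and 4Ag0000497 (log2 -0.49, adjusted p = 0.165). Limma called all 9 lower over the 5 time points, and DESeq2 called 7 lower.

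The share of 7Cg0003024 among the counts of the 9 genes was 0.664 to 5.47% in the 15 CDC Morrison endosperm libraries and 7.12 to 11.6% in those of AC Morgan. Of the CDC Morrison libraries only 1, replicate 3 at 0 h, lay within the range of the low set of developing grain, and none reached the high set. How many grains or panicles went into a germination library is not given in the sources used here.

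In embryo the 9 transcripts were low at 0 h and all but gone by 24 h. For 4Dg0000856 the AC Morgan embryos held 164, 144 and 89.1 CPM at 0 h, 30.7, 18.6 and 74.1 CPM at 6 h, and 0.318, 0.397 and 0.0569 CPM at 24 h. Those of CDC Morrison held 93, 146 and 39.7 CPM at 0 h, 4.04, 14.5 and 13.7 CPM at 6 h, and 4, 1.92 and 0.334 CPM at 24 h. The embryo held 3.36 to 5.81% of the endosperm level at 0 h over the 9 genes in AC Morgan. In CDC Morrison this was 3.94 to 5.21% for 8 genes and 13.1% for 7Cg0003024, whose embryo libraries held 3.33, 51.2 and 0.739 CPM.

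Avenins stood at nearly the same ratio, with 4.94% of their endosperm level in AC Morgan embryo and 6.58% in that of CDC Morrison, and GBSS1 at 4.67 and 6.19%. The 12S globulins stood at 3.94 and 4.56%, but inhibitors at 21.3 and 28.1% and genes of starch synthesis at 130 and 118%. At 24 h the embryo kept 0.954 and 2.79% of its 0 h level of avenins, but 22.0 and 8.29% of that of GBSS1. The part of endosperm carried over with the embryo in these values was not tested.

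Endosperm exceeded embryo for all 9 genes at all 5 time points by the test, and the libraries overlapped in a single case, 7Cg0003024 at 0 h. At 0 h, where 16.2% of all genes were called higher in endosperm, the log2 differences were 3.70 to 4.67 (SE 0.35 to 0.58, adjusted p at most 9.3e-07), at 3 h, where 19.7% were called higher, 5.82 to 6.41, and at 6 h, where 23.9% were called higher, 6.17 to 6.82. At 24 and 48 h, where 27.5% and 25.6% were called higher, the 9 genes were called again, and the embryo libraries held at most 4 CPM of any of them. 4Dg0000847 had no read in any AC Morgan embryo library of 24 or 48 h, nor 4Dg0000850 in those of 48 h, so no fold is given there. From 0 to 24 h all 9 genes fell in embryo, where 27.3% of all genes were called lower, and the means at 24 h were at most 0.720% of those at 0 h in AC Morgan and 4.18% in CDC Morrison.

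In germinating endosperm most prolamins and inhibitors fell from 0 to 48 h, as the puroindoline-like genes did. Among the prolamins 21 of 28 prolamins fell in AC Morgan and 22 in CDC Morrison, with medians of -2.01 and -2.83 on the log2 scale, beside -1.95 and -2.99 for the 9 genes and 0.05 over all tested genes in either cultivar, and 3 prolamins rose in each. Of 23 inhibitors 14 and 15 fell and 0 and 1 rose, with medians of -2.09 and -2.94. Of 46 12S globulins 22 fell and 1 rose in AC Morgan and 31 fell and 4 rose in CDC Morrison (medians -1.65 and -2.19), and of 48 genes of starch synthesis 22 fell and 5 rose and 27 fell and 7 rose (medians -0.55 and -1.06). Over all tested genes 21.1% were called higher and 18.3% lower in AC Morgan, and 23.2% and 21.5% in CDC Morrison. Alpha-amylases (23 genes), which the aleurone and scutellum secrete to digest starch, went the other way, and their summed level rose from 33.9 to 3606 CPM in AC Morgan and from 31.8 to 9818 CPM in CDC Morrison on average. Any part that this change in the makeup of the RNA had in the fall of the 9 genes was not tested.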

How the data were processed

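Whole grain (48 libraries) and germinating embryo and endosperm (60 libraries) were sequenced by the authors as stranded mRNA libraries in single-end reads. Per the labels and the study's methods, reads were checked with FastQC, trimmed with Trim Galore, cleared of rRNA with Bowtie2 and quantified by Salmon on transcripts of OT3098 v2 (tool versions: not given in the sources used here). Estimated counts per gene, imported with tximport, were deposited together with log2-scale values from the variance-stabilizing transformation of DESeq2. Salmon divides reads among similar transcripts, which limits the precision of single members of a family.

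The estimated counts were rounded to whole numbers. Genes with at least 5 counts in at least 5% of libraries were kept (62030 in grain, 62447 in germination), scaled by TMM and tested with edgeR 4.0.16 in R 4.3.3, with a group for each cultivar, tissue and time, two-sided, and Benjamini-Hochberg adjustment over all kept genes. CDC Morrison 10 DPE replicate 1 was left out. Log2 CPM used a prior count of 2, except in the correlations between pairs of the 9 genes, where a fixed constant was added to CPM. Alternatives were DESeq2 1.42.0, limma 3.58.1 on the deposited log2 values, RLE factors, library size alone, other filters, a replicate block, all 48 grain libraries and leaving out each library. The shares of all genes called that stand beside the results are those of the main fit. Shares for the alternatives are not given, so their counts of called members have no baseline. In simulated data in which 200 genes had a log2 change of 2, 91.5% were recovered for the cultivar difference at 15 DPE and 91% for the CDC Morrison endosperm change from 0 to 48 h. The simulated counts had the same dispersion for every gene, and only genes with enough expected reads were changed. For the 9 genes the SE of the cultivar difference at 15 DPE ran from 0.58 to 1.37. The simulation checks that a known change is recovered and gives no power for the 9 genes.

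Genes named are the 9 members, plus the 5 other genes most like 4Dg0000856. The genes named with 7Cg0003024 in the closing observations were chosen after their values were seen. The members and lists were chosen with earlier results of these data known. Tables and plots used Python 3.11.15 with pandas 2.3.3 and numpy 2.4.6. Total counts set the precision, and the smallest germination library held 3895703.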

Additional observations from a re-analysis of the deposited data

Results flagged for a closer look

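Between 5 and 10 DPE the change of 3 puroindoline-like genes differed between the cultivars by edgeR's quasi-likelihood test of the difference itself, where 4.32% of all tested genes were called higher. The difference of CDC Morrison from AC Morgan in this step was 5.52 on the log2 scale for 1Cg0000330, 5.21 for 4Dg0000856 and 3.83 for 7Cg0003032. In the same test 10 of 28 prolamins, 10 of 45 12S globulins and 5 of 23 inhibitors were called higher and none lower. Of 48 genes of starch synthesis 6 were called higher and 4 lower. Of the 9 puroindoline-like genes limma called 1, DESeq2 4, and edgeR 9 with all 48 grain libraries. The 3 called in the main fit rest on values of at most 6.69 CPM, and the CDC Morrison group at 10 DPE had 2 libraries. Without its replicate 3, which leaves 1 library assumed to vary like the other groups, 1 gene of the 9 was called.

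The library CDC Morrison 10 DPE replicate 1, which entered no comparison, held 1.25% of its counts in the 9 genes, against 0.000877 and 0.00164% in the other 2 libraries of its group.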

How the results depend on the processing

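Of 256 alternative values for counts of called puroindoline-like genes, 236 stayed within 1.5 times the main count. With all 48 grain libraries, the calls lower between adjacent times were 2 in AC Morgan and 5 in CDC Morrison (main 8 and 8), calls between cultivars by time point were 9 higher and 2 lower (main 2 and 12), the interaction called 9 (main 5) and the cultivar difference in each step 9 higher and 8 lower (main 3 and 0). In that fit the log2 difference at 10 DPE turned to 11.08 for 4Ag0000497 and 10.58 for 4Dg0000850. DESeq2 called the interaction for 9 and the step difference lower for 8. Limma called 1 higher by time point, 1 higher over 15 to 25 DPE (main 0), the interaction for 8, and the step difference for 7 higher and 7 lower. RLE factors gave 1 lower step difference. Leaving out each library gave 1 higher call at the least by time point, up to 8 for the interaction, and 1 to 10 higher and up to 9 lower for the step difference, the extremes coming without CDC Morrison 10 DPE replicate 3 or 30 DPE replicate 3, and 2 lower without 25 DPE replicate 3. The causes were not tested. With a replicate block the counts did not move (9 lower in AC Morgan endosperm from 0 to 48 h, 12 lower between cultivars in grain, 5 interactions). The block gave each replicate number an effect shared by all groups, so it does not test pairs of embryo and endosperm within a cultivar and hour. The numbers were not taken as pairs, since 3 of 21 grain pairs and 17 of 30 germination pairs (embryo with endosperm) correlated above 0.1, although in 19 of those 30 the own number gave the highest correlation, a hint of pairing from the data and not from the design. Library size alone moved the median of all genes to -1.05 and -1.15 for 10 to 15 DPE and to 0.55 and 0.69 for 0 to 48 h, and called 7 in AC Morgan endosperm. The few reads at 5 and 10 DPE and in embryo from 24 h on limit every fold against them.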

Other observations

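Over the 18 CDC Morrison libraries of 15 to 40 DPE, the gene whose level followed 7Cg0003024 most closely, of 45430 genes, was 7Cg0003051, annotated as a putative protease Do-like 14, with the opposite sign (r = -0.968). It held 0.742 to 1.35 CPM in the 5 libraries with a high share of 7Cg0003024 and 4.17 to 10.5 CPM in the other 13, and 3.22 to 7.47 CPM in AC Morgan. 7Cg0003049, annotated as an F-box/LRR-repeat protein, held 0.477 to 1.41 CPM in the 5 and 2.97 to 6.95 CPM in the 13. The first was chosen as the closest of all genes and the second, at rank 10, because its number lies near, both after their values were seen, so their split between the 5 and the 13 libraries follows from the choice. At ranks 2 and 3 stood 5Dg0002448 (r = -0.910), annotated as an ABC1 complex kinase, and 7Cg0002415 (r = 0.906), which has no annotation. The libraries share time points and the values of these genes are low, so the correlation is a description.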
